A study of Homo sapiens with 6 samples.

Results

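The collagen chain genes encode the α chains from which every collagen is built. They were taken as all rows of the deposited tables whose symbol has the form COL, a number, A and a number, which gave 39 of 16279 genes. Of these, 28 had a mean count of 20 or more over the 6 libraries, and 29 passed edgeR's filter on low counts and were tested. The genes COL6A5, COL9A1, COL19A1, COL22A1 and COL23A1 were not analysed here. RNA came from 12Z cells, a long-established line of epithelial cells from human endometriosis. Control cells were untreated (n = 3), and the others received 10 ng/mL rhChem157S, the recombinant active form of the adipokine chemerin, for 48 h (n = 3). No gene was altered in either group, every library came from the same line, and the labels call the libraries of a group biological replicates. A p-value therefore measures the spread between cultures of 1 line.

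A collagen molecule is a triple helix of α chains, which can be identical or products of different genes. Fibrillar collagens form the banded fibres of connective tissue, network collagens form the sheets of basement membranes, and beaded filament, fibril-associated (FACIT), multiplexin and transmembrane collagens link fibres, membranes and cells. In the endometrium, stromal cells are the usual source of fibrillar collagen, while epithelial cells rest on a basement membrane of type IV collagen.

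The epithelial label of the line was checked first. The keratins KRT8, KRT18 and KRT19 were abundant, and KRT8 alone ran from 748 to 966 FPKM (reads per kilobase of gene length, scaled to the library's total). In contrast, the epithelial adhesion genes EPCAM and CDH1 lay between 0.125 and 0.807 FPKM and between 0.0859 and 0.381 FPKM. All 7 stromal fibroblast markers had a mean count of 20 or more, and their summed level was 260 to 311 FPKM in Control and 205 to 427 FPKM in rhChem157S libraries. The 7 epithelial markers summed to 1596 to 1866 FPKM in Control and 1760 to 1976 FPKM in rhChem157S libraries, a sum carried by KRT8, KRT18 and KRT19. EPCAM, CDH1 and MUC1, an epithelial surface mucin, were lower in every rhChem157S library than in any Control library (25.1% of all genes in FPKM). Their log2 fold changes were -1.46 (SE 0.51), -1.14 (SE 0.44) and -0.57 (SE 0.17). EPCAM, with a mean count of 22.3, passed 20 only through the Control group, where it is high, so its fold rests on that group. The other 4 epithelial markers overlapped between the groups and had positive log2 fold changes. These were 0.29 (SE 0.12) for KRT8, 0.27 (SE 0.11) for KRT19, 0.16 (SE 0.11) for KRT18 and 0.08 (SE 0.28) for KRT7. edgeR's quasi-likelihood test called none of the 7 (0.0301% of all genes). DESeq2 with Benjamini-Hochberg adjustment called MUC1 (adjusted p = 0.0363), beside 10.6% of all genes. The endothelial markers summed to 1.61 to 2.01 FPKM and 0.991 to 1.41 FPKM, with PECAM1 and CDH5 under a mean count of 20. VWF, an endothelial clotting factor, was at 0.352 to 0.508 FPKM in Control and 0.0394 to 0.189 FPKM after rhChem157S (log2 fold change -1.97, SE 0.52, adjusted p of 0.117 by edgeR and 0.00608 by DESeq2). KDR, the most abundant endothelial marker, and CDH5 overlapped between the groups, with log2 fold changes of -0.10 (SE 0.19) and -0.15 (SE 0.47). Of the leukocyte markers, CD3E was not among the 16279 genes, and PTPRC and ITGAM were also under a mean count of 20. CD68 carried the sum of 70.2 to 134.5 FPKM in Control and 80.2 to 120.7 FPKM in rhChem157S libraries. The part of any such cells in the collagen levels was not tested, and in bulk RNA fewer cells of a type and less RNA per cell cannot be told apart. Each library held between 35430881 and 38341643 counts.

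Collagen RNA made up 1.85%, 1.77% and 1.56% of all counts in Control replicates 1 to 3 and 1.87%, 1.60% and 1.16% in rhChem157S replicates 1 to 3. On the length-corrected scale the chains summed to 2958, 2834 and 2476 FPKM in Control (2756 ± 250 SD, n = 3) and to 3021, 2568 and 1854 FPKM after rhChem157S (2481 ± 588 SD, n = 3). The highest and the lowest sum were both in the rhChem157S group, so the groups overlapped. The difference of the mean log2 sums was -0.18, less than the spread of the treated libraries (exact two-sided permutation test, p = 0.7, where 0.10 is the smallest p that 3 against 3 allows). Replicate 3 of the treated group stood apart with the lowest sum, and without it the difference was 0.019. Without COL1A1 it was -0.20, and on CPM (counts scaled by the library total and the TMM factor) it was -0.057.

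A pair of stromal marker genes, named after their values were seen, were lowest in the same library as the collagen sum. PDGFRB, a growth factor receptor of stromal cells, was at 21.2, 20.8 and 16.6 FPKM in Control and 19.8, 10.9 and 5.52 FPKM after rhChem157S. LUM, a small proteoglycan bound to collagen fibrils, was at 128, 112 and 104 FPKM in Control and 156, 99.8 and 65.0 FPKM after rhChem157S. That library was rhChem157S replicate 3. The other stromal markers were not lowest there, and PDGFRA was highest in it at 3.10 FPKM. Their part in the collagen sum was not tested.

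A few chains carried nearly all of this RNA. COL1A1 alone took 37.3% to 39.3% of the summed collagen FPKM of a library, the 3 most abundant chains together 64.1% to 71.5%, and the 10 most abundant 96.7% to 97.6%. By mean FPKM, COL1A1 ranked 19 among all genes and COL3A1 ranked 56. By class, fibrillar chains made up 72.8% of the collagen FPKM, beaded filament chains 11.7%, network chains 10.6%, FACIT chains 3.22% and multiplexin chains 1.52%.

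**Figure D1:**
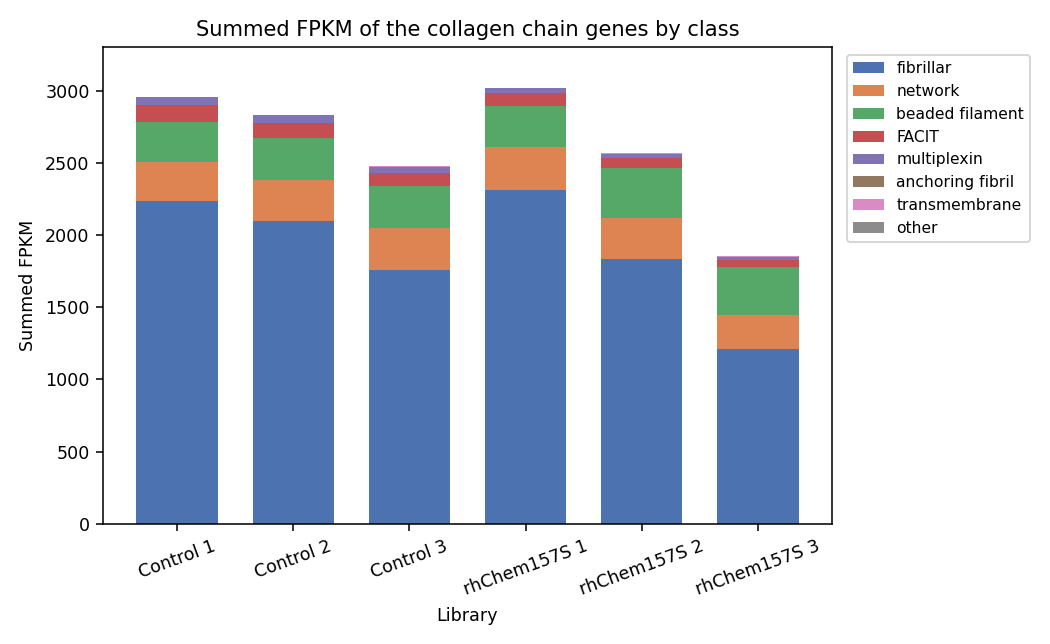
Summed FPKM of the collagen chain genes in each of the 6 libraries, with bars stacked by structural class. Fibrillar chains formed the largest class in every library, and rhChem157S replicate 3 had the smallest total, 1854 FPKM.

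No collagen chain gene passed an adjusted p of 0.05 in edgeR's quasi-likelihood test (Benjamini-Hochberg method over the 13311 genes tested), where 0.0301% of genes did. At an unadjusted p under 0.05 the same test named 9 of the 29 members (22.8% of all genes tested). Of these, 4 were higher after rhChem157S (11.4% of all genes), namely COL6A1, COL6A3, COL5A3 and COL17A1. The other 5, COL12A1, COL18A1, COL8A2, COL9A3 and COL9A2, were lower (11.4% of all genes). DESeq2 with Benjamini-Hochberg adjustment called 7 of the 29 at 0.05 (10.6% of all genes). limma on log2(FPKM + 1) called 1, COL9A3 (1.34% of all genes), and limma on log2(FPKM + 0.1) called 0 (0.173% of all genes). The chains called by DESeq2 were COL6A1, COL6A3 and COL17A1, which were higher, and COL18A1, COL8A2, COL9A3 and COL9A2, which were lower. Among them COL9A3 was the only one that DESeq2 also called in each of the 6 fits that left out 1 library. Over all fits made, the adjusted p of these chains ran up to 0.359 for COL9A3 and up to between 0.377 and 0.408 for the others. Without rhChem157S replicate 3 all 9 chains named by the unadjusted p kept their sign, with log2 fold changes of 2.59 for COL6A3, 1.87 for COL17A1, 0.72 for COL5A3, 0.30 for COL6A1, -0.38 for COL12A1, -0.42 for COL18A1, -0.63 for COL8A2, -1.49 for COL9A3 and -1.60 for COL9A2. edgeR then called 2 members, COL9A3 and COL7A1 (415 of all 13521 genes tested). Without rhChem157S replicate 1 edgeR called 6, namely COL6A1, COL6A3, COL9A2, COL9A3, COL12A1 and COL15A1 (844 of all 13517 genes tested). With any other library left out it called 0 members and 0 of all genes.

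Across the 29 tested members the median log2 fold change was 0.04, beside 0.01 for all genes tested, and 16 were higher (51.7% of all genes) and 13 lower (48.3% of all genes). With scaling to library size alone these medians were -0.09 and -0.12. A log2 fold change beyond 1 in either direction was seen for 7 of the 29 members, beside 6.67% of all genes. All 7 were chains under 5 FPKM, of which 16 were tested, and 14.7% of all genes at that level passed the same limit. Among the 11 chains at 20 FPKM or more, none did (1.27% of all genes at that level), and their log2 fold changes ran from -0.55 to 0.42. The FPKM of the groups did not overlap for 10 of the tested members (32.5% of all genes), 4 of them higher (7.36%) and 6 lower (25.1%) after rhChem157S. In TMM-scaled CPM, 9 members did not overlap (32.5% of all genes), with the split at 4 higher (16.5%) and 5 lower (16.0%).

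**Figure D2:**
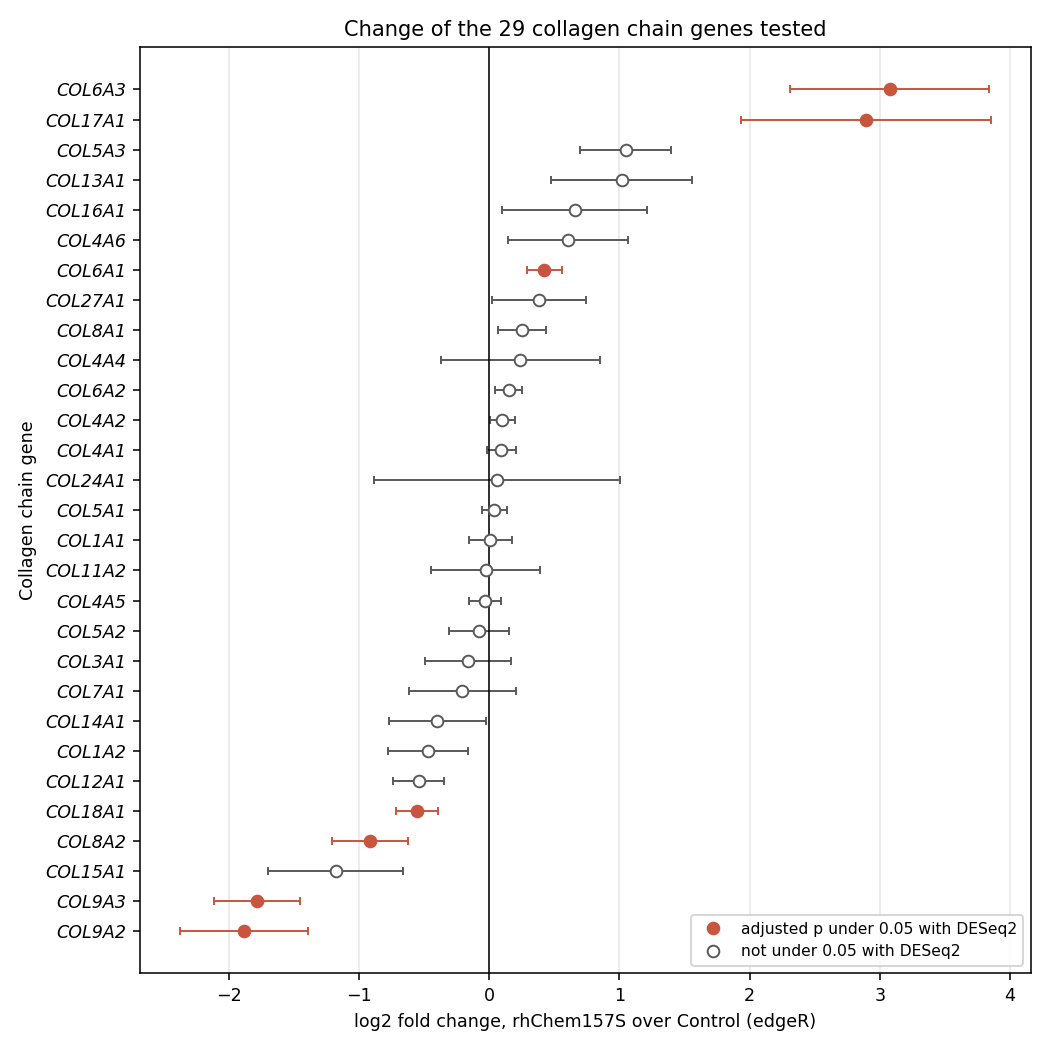
Log2 fold change of each of the 29 tested collagen chain genes, rhChem157S over Control (edgeR, horizontal bars ± 1 SE), ordered by value, with filled points for an adjusted p under 0.05 in DESeq2. COL6A3 at 3.08 and COL17A1 at 2.89 lie farthest to the right, and COL9A2 at -1.88 and COL9A3 at -1.78 farthest to the left.

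Among the fibrillar chains, the abundant members overlapped between the groups. COL1A1, the α1 chain of type I collagen (chromosome 17, 50183289 to 50201632, minus strand, GENCODE release 29 on GRCh38), was at 1104, 1076 and 945 FPKM in Control and 1165, 1001 and 728 FPKM after rhChem157S. COL1A2, the α2 chain that joins COL1A1 in the same trimer (chromosome 7, 94394561 to 94431232, plus strand), was at 128, 118 and 101 FPKM in Control and 114, 78.4 and 39.3 FPKM after rhChem157S. COL3A1, the chain of type III collagen, was at 736, 648 and 465 FPKM in Control and 764, 499 and 271 FPKM after rhChem157S. In all 3 genes replicate 1 of the treated group reached into or above the Control range, and replicate 3 lay below it. The log2 fold change was 0.01 (SE 0.17) for COL1A1, -0.47 (SE 0.31) for COL1A2 and -0.16 (SE 0.33) for COL3A1. Adjusted p-values by edgeR's quasi-likelihood test were 0.982, 0.386 and 0.786. The sign for COL1A1 was not stable, at -0.11 with scaling to library size alone. Without rhChem157S replicate 3 the value was 0.14 for COL1A1, -0.18 for COL1A2 and 0.11 for COL3A1.

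The chains of type V collagen, which joins type I fibrils and sets their width, ranged from abundant to scarce. COL5A1 was at 95.9, 92.9 and 94.7 FPKM in Control and 86.4, 96.9 and 82.7 FPKM after rhChem157S, with a log2 fold change of 0.04 (SE 0.10, edgeR's adjusted p = 0.830) and of -0.09 with scaling to library size alone. COL5A2, whose gene lies 19149 bases from COL3A1 on chromosome 2, was at 169, 159 and 148 FPKM in Control and 181, 153 and 83.0 FPKM after rhChem157S, with a log2 fold change of -0.08 (SE 0.23, edgeR's adjusted p = 0.853). Both chains overlapped between the groups. COL5A3, the scarce α3 chain of the type, was at 0.273, 0.478 and 0.528 FPKM in Control and 0.648, 0.676 and 1.07 FPKM after rhChem157S. All 3 treated libraries were above all Control libraries. Its log2 fold change was 1.05 (SE 0.35), with an adjusted p of 0.155 by edgeR's quasi-likelihood test. An antisense gene on the opposite strand, AC008742.1, shares 270 exon bases with COL5A3, and the strand setting of the counting is not given in the sources used here. The other fibrillar chains that were tested, COL11A2, COL24A1 and COL27A1, lay under 3 FPKM in every library and overlapped between the groups.

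Of the network collagens, COL4A1 and COL4A2 encode the ubiquitous pair of type IV collagen chains and were the most abundant. Their genes lie on opposite strands of chromosome 13, from 110148963 to 110307233 and from 110305812 to 110513209, and their starts face each other. The RefSeq promoter windows (GRCh38.p14, 250 bases before to 50 after the start) are shown because they share 226 of 300 bases, read from opposite strands. RefSeq gave such a window for 29 of the 39 members. Capitals mark matches on either strand to the CCAAT box, to the GC box GGGCGG and to the TATA box TATAAA, which overlap in no letter here and of which the TATA box has no match. COL4A1 is shown from the minus strand at chr13:110307108-110307407 and COL4A2 from the plus strand at chr13:110307034-110307333, both 5′ to 3′.
COL4A1: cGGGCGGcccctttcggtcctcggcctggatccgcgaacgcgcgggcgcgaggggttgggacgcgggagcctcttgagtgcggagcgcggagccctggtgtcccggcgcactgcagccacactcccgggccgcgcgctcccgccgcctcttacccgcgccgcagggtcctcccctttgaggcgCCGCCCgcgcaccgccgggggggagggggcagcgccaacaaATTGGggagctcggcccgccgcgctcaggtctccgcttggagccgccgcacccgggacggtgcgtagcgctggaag
COL4A2: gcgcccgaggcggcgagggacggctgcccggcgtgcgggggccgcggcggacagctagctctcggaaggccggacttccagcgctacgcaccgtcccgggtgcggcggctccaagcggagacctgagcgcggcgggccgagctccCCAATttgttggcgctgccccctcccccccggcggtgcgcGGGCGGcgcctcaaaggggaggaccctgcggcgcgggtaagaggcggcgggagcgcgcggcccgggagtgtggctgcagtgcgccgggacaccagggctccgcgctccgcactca
Some members have several windows, so shares are given per window. CCAAT was found in 13 of the 40 windows of these members and in 34.6% of all 35116 RefSeq promoter windows, GGGCGG in 23 of the 40 and in 45.0% of all, and TATAAA in 8 of the 40 and in 11.5% of all. A match is a description of the letters in the window, not of a bound site.

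The levels of this pair differed little between the groups. COL4A2 was at 210, 218 and 227 FPKM in Control and 231, 223 and 189 FPKM after rhChem157S. COL4A1 was at 42.3, 43.5 and 45.6 FPKM in Control and 48.4, 45.8 and 34.7 FPKM after rhChem157S. For both chains the highest and the lowest library were in the treated group. The log2 fold change was 0.10 (SE 0.10, edgeR's adjusted p = 0.544) for COL4A2 and 0.09 (SE 0.11, edgeR's adjusted p = 0.626) for COL4A1. With scaling to library size alone they were -0.026 and -0.029.

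The other network chains were scarcer. COL4A5 and COL4A6, another facing pair whose starts lie 347 bases apart on the X chromosome, also encode basement membrane chains. COL4A5 was at 8.03, 9.76 and 10.6 FPKM in Control and 8.09, 9.29 and 7.93 FPKM after rhChem157S (log2 fold change -0.04, SE 0.12, edgeR's adjusted p = 0.875). COL4A6 was at 0.744, 1.26 and 2.13 FPKM in Control and 1.11, 1.75 and 2.79 FPKM after rhChem157S (log2 fold change 0.60, SE 0.46, edgeR's adjusted p = 0.449). In COL4A6 the libraries of a group differed more from each other than the group means did, and in both groups the level rose with replicate number. With replicate number as a block, edgeR's log2 fold change was 0.61 (SE 0.13, adjusted p = 0.0829). DESeq2 with that block gave an adjusted p of 0.0187 and called 11.2% of all genes. Whether the numbers pair the libraries was not settled. Type VIII collagen, a short-chain network collagen of vessel walls and of a corneal membrane, is made of the COL8A1 and COL8A2 chains. COL8A2 was at 6.50, 7.66 and 5.53 FPKM in Control and 4.12, 3.86 and 1.67 FPKM after rhChem157S. COL8A1 was at 2.26, 2.28 and 2.91 FPKM in Control and 2.98, 3.16 and 2.00 FPKM after rhChem157S. The groups were separate for COL8A2 and overlapped for COL8A1. COL8A2 had a log2 fold change of -0.92 (SE 0.29), with an adjusted p of 0.142 by edgeR's quasi-likelihood test and 0.0272 by DESeq2, both with Benjamini-Hochberg adjustment. The log2 fold change of COL8A1 was 0.25 (SE 0.18, edgeR's adjusted p = 0.432). COL4A4 was tested at up to 0.158 FPKM and overlapped.

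The 3 tested beaded filament chains had positive log2 fold changes (51.7% of all genes), and the least abundant of these 3, COL6A3, had the largest. The other member of the class, COL6A6, had counts of 11, 10 and 5 in Control and 3, 1 and 11 after rhChem157S and was not tested. COL6A1 and COL6A2, which lie 93046 bases apart on the same strand of chromosome 21, join with COL6A3 in type VI collagen, a filament found next to basement membranes. COL6A1 was at 124, 132 and 137.5 FPKM in Control (131 ± 6.77 SD, n = 3) and 137.5, 168 and 175 FPKM after rhChem157S (160 ± 19.8 SD, n = 3). COL6A2 was at 155, 162 and 154 FPKM in Control and 148, 178 and 150 FPKM after rhChem157S. COL6A2 overlapped between the groups, whereas COL6A1 did not, although treated replicate 1 and Control replicate 3 of COL6A1 were nearly equal. The log2 fold change was 0.42 (SE 0.14) for COL6A1 and 0.15 (SE 0.10, edgeR's adjusted p = 0.415) for COL6A2. For COL6A1 the adjusted p was 0.145 by edgeR's quasi-likelihood test and 0.0491 by DESeq2, both with Benjamini-Hochberg adjustment.

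COL6A3 (chromosome 2, 237324003 to 237414375, minus strand) encodes the long α3 chain of type VI collagen and had the largest log2 fold change of any member. Its RefSeq promoter window, at chr2:237414115-237414414 on the minus strand of GRCh38.p14, is shown because it holds none of the 3 motifs.
COL6A3: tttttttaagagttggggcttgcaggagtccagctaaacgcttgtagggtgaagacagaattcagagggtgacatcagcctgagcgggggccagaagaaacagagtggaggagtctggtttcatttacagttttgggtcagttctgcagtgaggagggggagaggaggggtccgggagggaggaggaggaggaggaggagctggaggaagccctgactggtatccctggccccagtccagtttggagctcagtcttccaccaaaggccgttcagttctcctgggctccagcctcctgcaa
COL6A3 was at 0.162, 0.248 and 0.614 FPKM in Control (0.341 ± 0.240 SD, n = 3) and 0.623, 3.23 and 3.88 FPKM after rhChem157S (2.58 ± 1.73 SD, n = 3), from counts of 65, 103 and 250 and of 270, 1325 and 1641. The groups did not overlap, but the lowest treated library lay just above the highest Control library, and both groups spread several-fold. The log2 fold change was 3.08 (SE 0.76). The adjusted p was 0.106 by edgeR's quasi-likelihood test and 0.0124 by DESeq2, both with Benjamini-Hochberg adjustment. Over the 6 fits that left out 1 library, edgeR's value ran from 2.59 to 3.81.

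**Figure D3:**
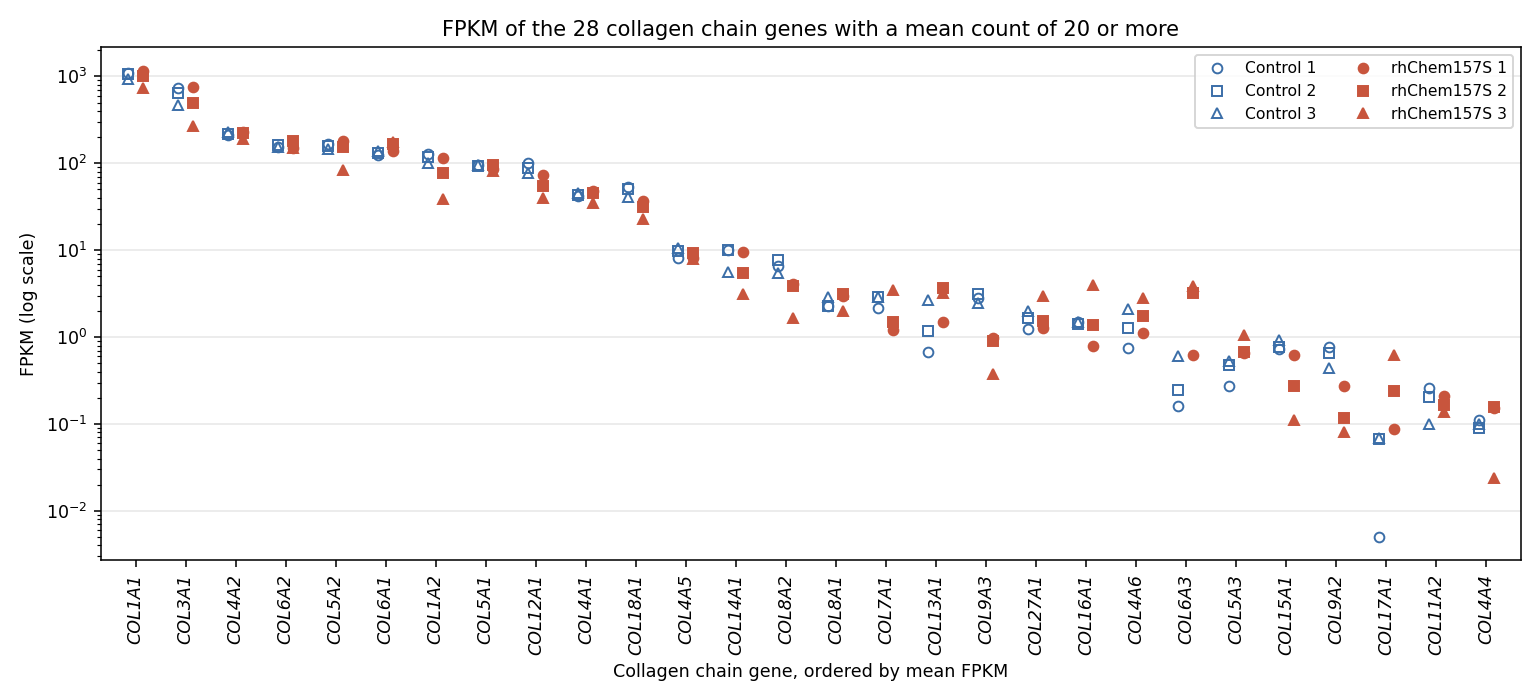
FPKM (log axis) of the 28 collagen chain genes with a mean count of 20 or more, ordered by mean FPKM, with open points for the 3 Control and filled points for the 3 rhChem157S libraries. For COL1A1, COL3A1 and COL4A2 the points of the groups overlap, those of COL9A3 are apart, and in COL6A3 the lowest treated point nearly meets the highest Control point.

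Of the 5 tested FACIT chains, 4 were lower (48.3% of all genes) and 1, COL16A1, was higher (51.7% of all genes). COL14A1, among the 4, overlapped between the groups. COL12A1, which decorates the surface of type I fibrils, was the most abundant, at 102, 89.3 and 77.4 FPKM in Control and 74.3, 55.5 and 40.3 FPKM after rhChem157S. The groups did not overlap in FPKM, but did in TMM-scaled CPM. Its log2 fold change was -0.54 (SE 0.20), with an adjusted p of 0.171 by edgeR's quasi-likelihood test and 0.0604 by DESeq2, both with Benjamini-Hochberg adjustment. COL14A1, COL16A1, COL9A2 and COL9A3 all lay at or under about 10.1 FPKM.

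COL9A3 and COL9A2 encode chains of type IX collagen, best known from the surface of cartilage fibrils. COL9A3 (chromosome 20, 62816244 to 62841159, plus strand) was at 2.85, 3.11 and 2.47 FPKM in Control (2.81 ± 0.322 SD, n = 3) and 0.971, 0.913 and 0.378 FPKM after rhChem157S (0.754 ± 0.327 SD, n = 3). COL9A2 (chromosome 1, 40300487 to 40317813, minus strand) was at 0.779, 0.662 and 0.443 FPKM in Control and 0.271, 0.119 and 0.0813 FPKM after rhChem157S. In both genes every treated library lay below every Control library, and for COL9A3 the gap between the groups was wider than the range within either. COL9A3 had a log2 fold change of -1.78 (SE 0.33), the smallest p of all members (unadjusted p = 9.05e-04 in edgeR's quasi-likelihood test). Its adjusted p was 0.0752 by edgeR and 2.70e-05 by DESeq2, both with Benjamini-Hochberg adjustment, and the highest that DESeq2 gave with 1 library left out was 0.0111. COL9A2 had a log2 fold change of -1.88 (SE 0.49), with an adjusted p of 0.110 by edgeR and 0.00741 by DESeq2, again with Benjamini-Hochberg adjustment. COL9A3 shares 45 exon bases with TCFL5 on the opposite strand. The RefSeq window of COL9A2, at chr1:40317237-40317536 on the minus strand, is shown for its 3 matches to GGGCGG, 2 of which overlap.
COL9A2: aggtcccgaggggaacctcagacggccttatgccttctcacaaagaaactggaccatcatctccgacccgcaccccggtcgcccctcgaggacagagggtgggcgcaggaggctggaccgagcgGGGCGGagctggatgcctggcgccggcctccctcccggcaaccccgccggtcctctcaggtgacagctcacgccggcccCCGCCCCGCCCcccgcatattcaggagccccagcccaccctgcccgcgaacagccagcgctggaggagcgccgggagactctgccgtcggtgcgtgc

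Both multiplexin chains were lower in every treated library than in any Control library (25.1% of all genes in FPKM). COL18A1, whose cleaved C-terminal fragment is endostatin, was at 53.4, 50.4 and 40.7 FPKM in Control (48.2 ± 6.64 SD, n = 3) and 36.8, 31.2 and 22.6 FPKM after rhChem157S (30.2 ± 7.18 SD, n = 3). Its log2 fold change was -0.55 (SE 0.16), with an adjusted p of 0.131 by edgeR's quasi-likelihood test and 0.0262 by DESeq2, both with Benjamini-Hochberg adjustment. The value was -0.42 without rhChem157S replicate 3. COL18A1 shares 1401 of its 8525 exon bases with SLC19A1 on the opposite strand. Reads within those shared bases cannot be told apart if strand was not used. COL15A1, named here after its values were seen, was at 0.739, 0.777 and 0.920 FPKM in Control and 0.616, 0.273 and 0.113 FPKM after rhChem157S. Its log2 fold change was -1.18 (SE 0.52), with an adjusted p of 0.226 by edgeR's quasi-likelihood test and 0.128 by DESeq2. With 1 library left out the fold change ran from -1.94, without rhChem157S replicate 1, to -0.79, without rhChem157S replicate 3. COL4A2, COL15A1 and COL16A1 share 81, 137 and 117 exon bases with antisense genes on the opposite strand.

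The transmembrane chains were scarce and higher on average after rhChem157S. COL17A1, a hemidesmosome protein that anchors epithelial cells to the basement membrane, had counts of 1, 14 and 14 in Control and 19, 49 and 130 after rhChem157S. These correspond to 0.00503, 0.0679 and 0.0692 FPKM and to 0.0883, 0.241 and 0.619 FPKM. The groups did not overlap, but every level was under 1 FPKM and the treated mean rested mainly on replicate 3. The gene reached a mean count of 20 only through the treated group, where it is high, so its fold, its place among the higher members and its call by DESeq2 rest on that group. The log2 fold change was 2.89 (SE 0.96), with an adjusted p of 0.152 by edgeR's quasi-likelihood test and 0.0275 by DESeq2, both with Benjamini-Hochberg adjustment. Without rhChem157S replicate 3 it was 1.87, with an adjusted p of 0.216 by DESeq2. The RefSeq window of COL17A1, at chr10:104085831-104086130 on the minus strand, is shown because it has a TATAAA match, a CCAAT match read on the other strand and only 1 CpG, against 45 in each of the COL4A1 and COL4A2 windows.
COL17A1: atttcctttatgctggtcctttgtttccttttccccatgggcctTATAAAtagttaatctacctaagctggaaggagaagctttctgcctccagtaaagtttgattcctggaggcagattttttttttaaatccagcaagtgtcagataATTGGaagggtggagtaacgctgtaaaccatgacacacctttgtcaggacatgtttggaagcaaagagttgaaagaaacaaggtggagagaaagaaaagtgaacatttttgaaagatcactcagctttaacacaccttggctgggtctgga
COL13A1, another transmembrane collagen, overlapped between the groups, with 0.672 to 2.68 FPKM in Control and 1.48 to 3.66 FPKM after rhChem157S and a log2 fold change of 1.02 (SE 0.54, edgeR's adjusted p = 0.300). It was 1.72 without Control replicate 3, where DESeq2's adjusted p was 0.0161, and 0.67 without Control replicate 1.

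The values of several scarce members depended on rhChem157S replicate 3, and all of them were named after their values were seen. COL7A1, the anchoring fibril collagen, was at 1.20, 1.51 and 3.47 FPKM after rhChem157S, beside 2.17, 2.88 and 2.93 FPKM in Control. COL16A1 was at 0.795, 1.37 and 3.97 FPKM after rhChem157S, beside 1.46 ± 0.0446 FPKM (SD, n = 3) in Control. COL27A1 was at 1.26, 1.54 and 2.95 FPKM after rhChem157S, beside 1.25, 1.68 and 2.00 FPKM in Control. In each of the 3 genes replicate 3 of the treated group was the highest of all 6 libraries. Without it the log2 fold change went from -0.21 to -0.89 for COL7A1, from 0.66 to -0.35 for COL16A1 and from 0.38 to -0.14 for COL27A1. COL14A1 was lowest in that library, at 9.46, 5.47 and 3.17 FPKM after rhChem157S, and ran from 5.56 to 10.1 FPKM in Control.

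The 11 members with a mean count under 20 were COL2A1, COL4A3, COL6A6, COL10A1, COL11A1, COL20A1, COL21A1, COL24A1, COL25A1, COL26A1 and COL28A1. COL24A1, with a mean count of 8, was tested and the other 10 were not. Among them are COL2A1, the main collagen of cartilage, and COL10A1, a marker of hypertrophic cartilage, with at most 8 counts and 1 count in a library. COL28A1 had 4, 5 and 4 counts in Control and 0 in each treated library, where a count of 0 allows up to 3 counts, or 0.0782 to 0.0827 CPM. This limit, which covers counting error only, is close to the Control counts, so no fold is given.

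Chains of the same trimer were then compared within each library, which needs no scaling between libraries. Of 13 ratios listed, 10 had both chains at a mean count of 20 or more. The groups were separate in 6 ratios. Each had p = 0.10 in an exact two-sided permutation test, the smallest p that 3 against 3 allows. Adjusted over the 10 ratios, this permutation p was 0.167. The 6 were not independent, since COL6A1 and COL6A3 recur among them. COL6A1, COL6A3, COL5A3 and COL8A2 were also separate on their own, as were 32.5% of all genes in FPKM. No share of separate ratios over other gene pairs was computed. The FPKM ratio of COL1A1 to COL1A2 was 8.64, 9.12 and 9.40 in Control and 10.2, 12.8 and 18.5 after rhChem157S, a difference of 0.57 on the log2 scale. It was higher in 3 of 3 treated libraries than in any Control library, and 0.33 without rhChem157S replicate 3. COL4A1 to COL4A2 stayed close in all libraries, at 0.202, 0.199 and 0.201 in Control and 0.209, 0.206 and 0.183 after rhChem157S (log2 difference -0.01, exact permutation p = 1). The level of such a ratio depends on the lengths behind the FPKM, here 15595 bases for COL4A1 and 6446 bases for COL4A2. The mean counts of these chains were 24838.5 and 51195.

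Ratios within type VI and type VIII collagen were also among the 6. None of the ratios could pass an adjusted p of 0.05, since 0.10 is the smallest p that the test allows. COL6A1 to COL6A2 was 0.802, 0.815 and 0.893 in Control and 0.928, 0.941 and 1.16 after rhChem157S (log2 difference 0.27). COL6A1 to COL6A3 was 764, 534 and 224 in Control and 221, 52.0 and 45.0 after rhChem157S (log2 difference -2.49), and for COL6A2 to COL6A3, which shares the COL6A3 values, the log2 difference was -2.76. Without rhChem157S replicate 1 these were -3.22 and -3.54. The COL6A3 chain was scarce beside its partners in every library, and on average less so after treatment. The ratio of COL6A1 to COL6A3 in rhChem157S replicate 1, 221, nearly met that in Control replicate 3, 224. COL8A1 to COL8A2 was 0.348, 0.298 and 0.526 in Control and 0.723, 0.817 and 1.20 after rhChem157S (log2 difference 1.23). COL5A1 to COL5A3 was 351, 194 and 179 in Control and 133, 143 and 77.6 after rhChem157S (log2 difference -1.01). The groups overlapped for COL9A2 to COL9A3 (log2 difference -0.14, exact permutation p = 0.9), COL5A1 to COL5A2 (0.17, p = 0.8) and COL4A5 to COL4A6 (-0.64, p = 0.4).

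**Figure D4:**
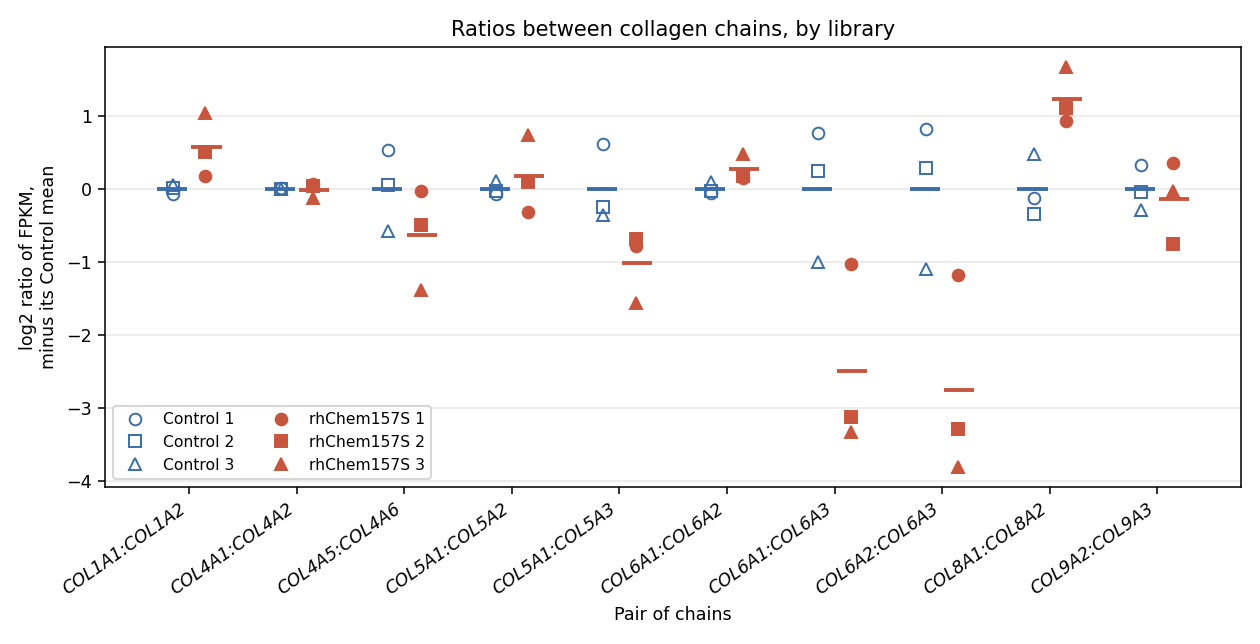
Log2 ratio of the FPKM of chains of the same collagen in each library, minus the Control mean of that ratio, with open points for Control, filled points for rhChem157S and short lines for the group means. The means of COL4A1 to COL4A2 lie together, with a difference of -0.01, while the treated mean lies 1.23 above Control for COL8A1 to COL8A2 and at -2.49 for COL6A1 to COL6A3.

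Genes that modify, export, cut and bind collagen were read from the same fit, and edgeR's quasi-likelihood test called 0 of them at an adjusted p of 0.05 (0.0301% of all genes). The shares of all genes given for the modification list are those to read every list against. Of 15 tested genes for prolyl and lysyl modification, 3 were higher and 1 lower at an unadjusted p under 0.05 (11.4% of all genes in each direction), and DESeq2 called 1 in each direction (10.6% of all genes in both together). P3H2, a prolyl 3-hydroxylase, was at 25.4 ± 1.17 FPKM (SD, n = 3) in Control and 14.1 ± 4.28 FPKM after rhChem157S, with no overlap (log2 fold change -0.73, SE 0.19). P4HA1, a catalytic subunit of prolyl 4-hydroxylase, had a log2 fold change of 0.51 (SE 0.15), and P4HB, its partner subunit and the most abundant of the list, 0.28 (SE 0.14). Of 12 tested genes for folding and export, 3 were higher and 1 lower at an unadjusted p under 0.05, and DESeq2 called 1, PDIA3, a disulphide isomerase of the endoplasmic reticulum. PDIA3 had a log2 fold change of 0.56 (SE 0.14). SERPINH1, the collagen chaperone HSP47, was the most abundant and had 0.24 (SE 0.10).

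Of 12 tested genes for procollagen cleavage and crosslinking, 8 were lower and 4 higher, with a median log2 fold change of -0.46 beside 0.01 for all genes. At an unadjusted p under 0.05, 4 were lower and 1 higher (11.4% of all genes in each direction), and DESeq2 called 2 lower and 1 higher (10.6% of all genes in both directions together). LOXL1, a lysyl oxidase, was at 35.4, 35.9 and 44.5 FPKM in Control and 23.3, 23.9 and 18.4 FPKM after rhChem157S (log2 fold change -0.69, SE 0.12). Its adjusted p was 0.0718 by edgeR's quasi-likelihood test and 1.09e-04 by DESeq2, both with Benjamini-Hochberg adjustment. LOX, the founding member of that family, differed the other way, at 46.2, 48.1 and 63.5 FPKM in Control and 64.1, 109 and 85.7 FPKM after rhChem157S (log2 fold change 0.85, SE 0.22). The second gene that DESeq2 called lower was TLL1, a procollagen C-proteinase, with a log2 fold change of -1.19 (SE 0.30). LOXL2 was the most abundant and had 0.19 (SE 0.19).

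Of 11 fibril partners, 2 were higher and 2 lower at an unadjusted p under 0.05, and DESeq2 called 2 lower, the small proteoglycans FMOD (log2 fold change -1.78, SE 0.45) and BGN (-0.83, SE 0.22). SPARC, a collagen-binding glycoprotein and the most abundant of them, had 0.08 (SE 0.18). Of 8 tested receptors, 2 were higher and 1 lower at an unadjusted p under 0.05. ITGB1, the β1 integrin subunit shared by the collagen-binding integrins, was at 302, 294 and 318 FPKM in Control and 371, 446 and 401 FPKM after rhChem157S (log2 fold change 0.55, SE 0.12). Its adjusted p was 0.0868 by edgeR's quasi-likelihood test and 3.35e-04 by DESeq2, both with Benjamini-Hochberg adjustment, and DESeq2 called no other receptor.

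Collagen-cleaving proteases had the highest median of the 6 lists, 0.77 over 6 tested genes. Of these, 4 were higher and none lower at an unadjusted p under 0.05 (11.4% of all genes in each direction), and DESeq2 called 3 (10.6% of all genes), namely MMP1, MMP9 and FAP, all higher. MMP1, MMP14, MMP2 and CTSK overlapped between the groups, and of these DESeq2 called only MMP1. MMP1, the interstitial collagenase, was at 0.172, 0.331 and 1.90 FPKM in Control and 1.67, 15.8 and 145 FPKM after rhChem157S. The groups overlapped, since the lowest treated library lay under the highest Control library, and the log2 fold change of 6.28 had an SE of 1.73. MMP9, a gelatinase, was at 0.254, 0.757 and 0.903 FPKM in Control and 1.48, 3.17 and 2.34 FPKM after rhChem157S (log2 fold change 2.00, SE 0.50). FAP, a cell-surface protease that is also on the stromal marker list, had a log2 fold change of 0.81 (SE 0.20), and MMP14, the membrane-bound collagenase and the most abundant of the list, 0.72 (SE 0.27).

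**Figure D5:**
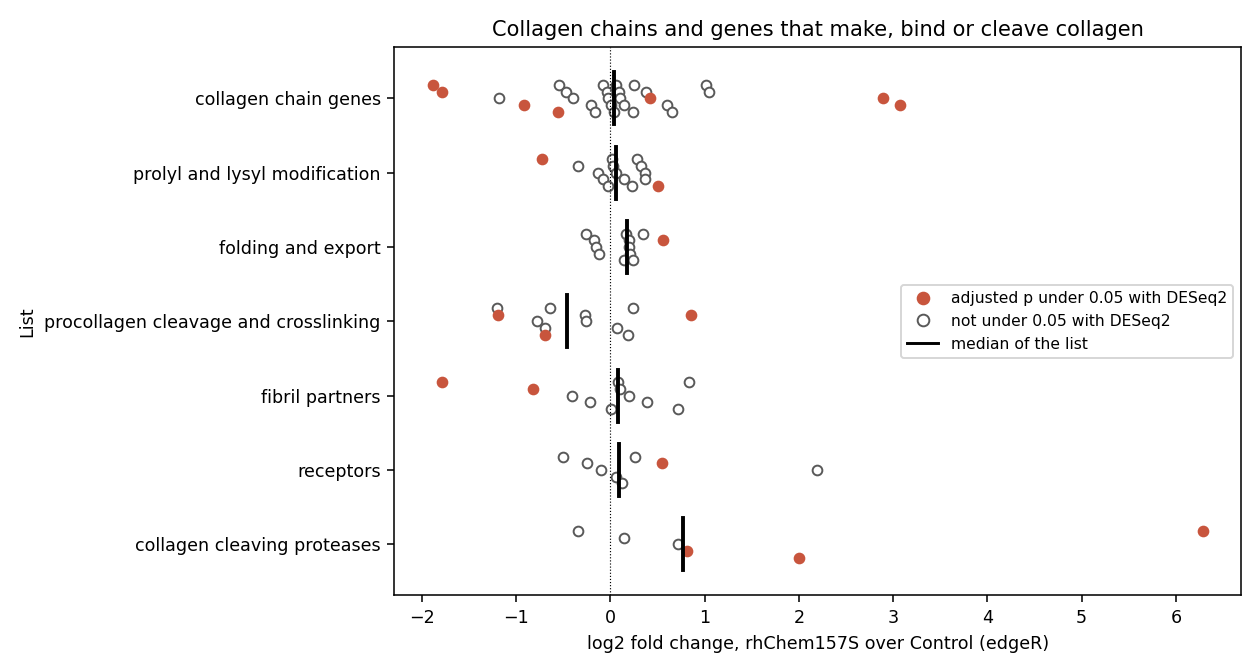
Log2 fold change, rhChem157S over Control (edgeR), of the 29 tested collagen chain genes and of every tested gene in the 6 lists around collagen, with 1 row per list, a black line at its median and filled points for an adjusted p under 0.05 in DESeq2. MMP1, at 6.28, is farthest from 0, and 8 of the 12 cleavage and crosslinking genes lie below 0.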

How the data were processed

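RNA of 12Z cells was sequenced as 150 bp paired reads in 3 Control and 3 rhChem157S libraries. Per the study's methods and the submitters' processing notes, the authors trimmed reads with fastp, aligned them to GRCh38.p13 with HISAT2, counted them per gene with HTSeq and tested with DESeq2, using R 3.2.0 for ordination and plots. The strand setting is not given in the sources used here. The authors deposited raw counts and FPKM of 16279 genes. All 89195 FPKM values compared lay within 1% of the count over a fixed length and the library total. The dose and time are from the study's methods. The 39 members and the gene lists were chosen with earlier results of these data known.

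The main test was edgeR 4.0.16 under R 4.3.3 (TMM, filterByExpr, quasi-likelihood, Benjamini-Hochberg adjustment over 13311 genes), and the fits were tested on simulated data first. The same counts were also tested with DESeq2 1.42.0 and the FPKM, after adding 1 or 0.1 and taking log2, with limma 3.58.1. Further alternatives were library size scaling, DESeq2 size factors, no filter, a mean count of 20, other edgeR settings, the replicate block and leaving out each library. DESeq2 with a library left out or with the block was added after seeing the data. Sums and ratios were tested by exact permutation. Members were given in full if called by edgeR or DESeq2, among the 10 highest by FPKM or the 8 smallest by p, or in a ratio. From each list around collagen the gene with the smallest p, the most abundant gene and any called gene were named. Deviations of same-numbered libraries from their group means correlated at 0.241, 0.00147 and 0.247 over all genes. Those of unlike-numbered libraries correlated at -0.306 to 0.106. Whether the numbers pair the libraries was not settled by this, so the main fit took no pairs and the replicate block was an alternative. 1 count equals 0.0261 to 0.0282 CPM. Promoters are from RefSeq on GRCh38.p14 and gene positions from GENCODE release 29.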

Additional observations from a re-analysis of the deposited data

How the results depend on the processing

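edgeR called 0 members also with library size scaling, DESeq2 size factors, no filter, a mean count of 20, robust=TRUE, legacy=FALSE and the replicate block, whereas DESeq2 called 7 and limma on log2(FPKM + 1) called 1. Leaving out 1 library gave 0 to 6 calls with edgeR (6 without treated library 1, and 2, COL7A1 and COL9A3, without treated library 3) and 1 to 13 with DESeq2 (5 without Control replicate 3, and 13, 2 and 6 without the treated libraries 1, 2 and 3). Calls over all 13450 to 13531 genes tested moved as well. edgeR called 844 and 415 genes without treated libraries 1 and 3, and 0 otherwise. DESeq2 called 767, 300 and 582 without Control replicates 1, 2 and 3, and 2704, 669 and 1816 without treated libraries 1, 2 and 3. Members lower at an unadjusted p under 0.05 numbered 3 to 8 (edgeR) and up to 9 (DESeq2), and those higher 2 to 8. Over all genes, those at an unadjusted p under 0.05 in either direction numbered 1666 to 4067 (edgeR) and 1944 to 4359 (DESeq2). The replicate block gave 8 lower at an unadjusted p under 0.05 in edgeR and in DESeq2 (13.3% of all genes in each). DESeq2 with the block called 13 (11.2% of all genes). Replicates 1 and 3 of the groups correlated best with their own number and replicate 2 did not, so pairing by number was not settled. The median log2 fold change was -0.091 with library size alone, -0.042 and -0.062 with limma (1 or 0.1 added), -0.032 with no filter, -0.0042 with the block (-0.0092 in DESeq2) and -0.021 to 0.11 with a library left out.

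Sign changes of the chains given in full were as follows. COL1A1 was -0.13 with either limma scale, -0.11 with library size alone, -0.0042 with the replicate block (-0.0092 in DESeq2) and -0.12 to 0.14 with a library left out (in DESeq2 -0.060 without Control replicate 3, and -0.12 and -0.015 without the treated libraries 1 and 2). COL4A2, COL5A1 and COL4A1 were -0.030, -0.093 and -0.042 with limma on log2(FPKM + 1), -0.030, -0.094 and -0.043 with 0.1 in place of 1, and -0.026, -0.091 and -0.029 with library size alone. With a library left out, COL5A1 ran from -0.024 to 0.078 (-0.021 in DESeq2 without rhChem157S replicate 2), COL4A5 from -0.14 to 0.055 (0.052 and 0.019 in DESeq2 without Control replicate 3 and rhChem157S replicate 1), COL3A1 from -0.54 to 0.11 (0.12 in DESeq2) and COL5A2 from -0.29 to 0.15 (0.16 in DESeq2). The summed FPKM difference ran from -0.33 to 0.019, and the ratio differences from -0.049 to 0.047 for COL4A1 to COL4A2, -0.12 to 0.41 for COL5A1 to COL5A2 and -0.39 to 0.16 for COL9A2 to COL9A3, which was 0.31 with 0.1 added to the FPKM. The cause of these shifts was not tested. With 3 libraries a group, values of chains under 1 FPKM rest on few counts.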
